A study of Mus musculus with 4 samples.

Results

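A set of 10 genes that encode parts of the elastic fibre and its microfibrils was followed through cultured cells of the mouse hair follicle: Fbn1, Fbn2, Eln, Fbln1, Fbln2, Fbln5, Efemp2, Emilin1, Mfap2 and Mfap5. They were found by gene name in the table of raw counts, where each name matched 1 row, so that the set held 10 of 51826 listed genes. All 10 were kept by a filter on low genes (mean of the raw counts not under 10), as were 16734 genes in all. The members were chosen by their role and with their counts in these same libraries known, so the values are a description and no test was made on them.

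The cells were dermal papilla cells (DPCs), the mesenchyme inside the hair bulb, and dermal sheath cells (DSCs), which line the outside of the follicle. Both were grown out of whisker follicles of C57BL/6J mice 5 to 6 weeks old that carried an EGFP transgene, and cultured in DMEM with serum. The transgene was common to all groups, while the labels give every sample the genotype WT. Each cell type was sequenced at passage 3, called low passage, and at passage 9, called high passage, with 1 library per group and 4 libraries in all, and the sources do not say how many animals stood behind each. There were no replicates, so the intervals given here are 95% intervals of counting error only, passage cannot be told apart from the time in culture or the handling of a library, and comparisons that share a library are not independent of each other.

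Elastic fibres give skin and vessels their recoil. They consist of a core of crosslinked elastin on a scaffold of microfibrils, which are built from fibrillins and decorated by microfibril-associated glycoproteins, fibulins and emilins. Microfibrils also occur without elastin and hold latent complexes of TGF-beta, and elastic fibres occur in the connective tissue around hair follicles.

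The libraries held 34981284 to 47604059 counts and 22230 to 23548 genes with at least 1 count. Levels are given as CPM, counts scaled to the size of the library with the TMM method, and differences as log2 fold changes with a prior count of 2. The labelled cell types were checked on marker genes. Of 7 dermal papilla genes, the transcription factor Sox2 stood at 45.6 and 41.5 CPM in low- and high-passage DPCs against 7.09 and 3.91 CPM in DSCs, whereas Ncam1 was lower in DPCs (99.0 and 46.6 CPM) than in DSCs (310 and 342 CPM). Alpl, Corin and Lepr were at 23 counts or fewer in every library, so these papilla markers did not separate the labels. The keratinocyte genes Krt5, Krt14, Krt15 and Cdh1 and the melanocyte genes Dct, Mlana, Tyr and Tyrp1 were at 0 in all libraries. The remaining genes of these lists had few counts. Trp63 had 10 to 35, Pmel had 17 to 47, and Epcam had 4 in high-passage DPCs only. The summed level of 7 fibroblast genes was 16683, 5933, 25059 and 22467 CPM in DPCs at low and high passage and in DSCs at low and high passage, and that of 5 sheath and smooth muscle genes was 9245, 2524, 7433 and 6003 CPM, with Des the only one at 0, in both DPC libraries. Both sums were lowest in high-passage DPCs, as were several of the genes described here. The fibroblast sum is mostly that of 3 collagen genes, and the other genes of the list were mixed. Pdgfrb had its lowest level in high-passage DPCs and its highest in low-passage DSCs, like the sum. Lum was at 0 in high-passage DPCs and low-passage DSCs. Pdgfra, in contrast, was highest in high-passage DPCs (811 CPM, against 121 to 304 CPM). Dcn was at 153 CPM there, above both low-passage libraries (116 and 86.8 CPM) and below high-passage DSCs (1964.9 CPM). In both cell types 5 proliferation genes were lower in sum at high passage (517 and 131 CPM in DPCs, 439 and 183 CPM in DSCs), and so were 6 Schwann cell genes, at 12.1 and 3.65 CPM in DPCs and 30.5 and 5.09 CPM in DSCs, with Sox10, Cdh19 and Ngfr at 0 at high passage. Sums of 5 immune genes (21.2 and 9.03 CPM in DPCs, 32.9 and 14 CPM in DSCs) and 4 endothelial genes (2.42 and 0.111 CPM in DPCs, 5.49 and 0.987 CPM in DSCs) were also lower at high passage. The sum of 4 chondrocyte genes set the cell types apart, at 7.69 and 7.33 CPM in DPCs and 128 and 109 CPM in DSCs. Most of it in DSCs was Comp, at 80.7 and 101 CPM there and 1.79 and 3.23 CPM in DPCs. Acan was at 34.3 and 1.73 CPM and Col2a1 at 5.35 and 0.0439 CPM in low- and high-passage DSCs. At high passage Acan (0.613 CPM in DPCs) and Sox9 (3.48 CPM in DPCs, 6.23 CPM in DSCs) differed far less than Comp. The part that a change in the mix of cells had in the results was not tested, and in such bulk libraries fewer cells of a type and less RNA per cell cannot be told apart.

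All 10 genes are annotated as protein coding in GENCODE M21 on build GRCm38. Fbn1 (ENSMUSG00000027204) lies at chr2:125300594-125507993 on the minus strand with 66 exons in the coding transcript that has the most, and Eln (ENSMUSG00000029675) at chr5:134702593-134747323 on the minus strand with 37. Mfap5 (ENSMUSG00000030116, chr6:122505845-122529290, plus strand) and Fbln2 (ENSMUSG00000064080, chr6:91212455-91272540, plus strand) share a chromosome, and Emilin1 (ENSMUSG00000029163, chr5:30913402-30921277, plus strand) shares one with Eln. Mfap2 (ENSMUSG00000060572) lies at chr4:141010418-141015984 on the plus strand, and Fbn2 (ENSMUSG00000024598) has 65 exons on a minus strand. The position in the deposited table was identical to that of GENCODE for 8 of the 10 and differed at 1 end for Fbn2 and at both ends for Efemp2. An antisense gene, Gm9913, overlaps 20.1% of the exonic bases of Fbn1 and held 18 to 72 counts, against at least 19222 for Fbn1. Mus81, on the other strand, overlaps 4.57% of Efemp2 exonic bases and held 587 to 951 counts. The use of strand in counting was not given in the sources used here, so reads in these overlaps cannot be assigned.

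The bases upstream of the start site are shown for 3 fibulins of the set. In passaged DPCs Fbln1 (ENSMUSG00000006369, chr15:85205949-85286535, plus strand) was lower. Fbln5 (ENSMUSG00000021186, chr12:101746565-101819055, minus strand) and Efemp2 (ENSMUSG00000024909, chr19:5473973-5481853 in the deposited table, plus strand), which encodes fibulin-4, were both higher by less than 2-fold (log2 0.14 and 0.54). The sequences are the 250 bases before the annotated start in RefSeq on GRCm38.p6, at chr15:85205699-85205948, chr12:101819120-101819369 (minus strand) and chr19:5473696-5473945. They were chosen because they lie outside any annotated transcript of their own gene, and capitals mark matches, on either strand, to 6 motifs. These were the letters TATAAA, which form the TATA box. Others were GGGCGG, known as the GC box, and the CCAAT box. TGANTCA was searched for AP-1 sites, GGAATG for TEAD sites and GTCTG for SMAD elements.
Fbln1: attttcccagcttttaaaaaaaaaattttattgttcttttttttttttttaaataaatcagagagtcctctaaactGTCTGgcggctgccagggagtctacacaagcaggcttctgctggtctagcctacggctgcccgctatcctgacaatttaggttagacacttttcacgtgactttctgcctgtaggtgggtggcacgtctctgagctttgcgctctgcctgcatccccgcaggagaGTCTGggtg
Fbln5: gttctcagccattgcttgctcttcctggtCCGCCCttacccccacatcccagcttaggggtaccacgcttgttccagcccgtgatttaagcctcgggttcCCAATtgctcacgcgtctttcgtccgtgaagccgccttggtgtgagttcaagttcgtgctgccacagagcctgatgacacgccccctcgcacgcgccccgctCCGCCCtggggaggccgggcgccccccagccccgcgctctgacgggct
Efemp2: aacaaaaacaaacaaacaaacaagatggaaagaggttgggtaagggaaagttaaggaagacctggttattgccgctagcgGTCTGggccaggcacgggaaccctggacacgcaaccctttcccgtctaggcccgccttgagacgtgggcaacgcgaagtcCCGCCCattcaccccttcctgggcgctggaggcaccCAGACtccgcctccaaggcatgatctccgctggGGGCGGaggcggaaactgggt
No marked base lies in more than 1 motif. Fbln1 upstream bases hold 2 GTCTG matches and no GC box, with a GC content of 46.4%. The Fbln5 window has 1 CCAAT box and 2 GC boxes at a GC content of 65.2%, and that of Efemp2 has 2 GC boxes and 2 GTCTG matches at 59.2%. Windows of other start sites of the same genes differ. Another Fbln1 start has 1 GC box and 62.4% GC, and another Fbln5 start has no GC box and 49.6% GC. Further Efemp2 starts have 5 GC boxes each, at 75.6% and 78.8% GC. Over all 32851 RefSeq windows of this length the median GC content was 52.4%, with quartiles of 45.2% and 61.2%. A GC box occurs in 32.7% of them, GTCTG in 42.2%, a CCAAT box in 33.8%, GGAATG in 12.6%, a TATA box in 12.4% and AP-1 in 6.75%. For the 7 members found in the RefSeq table all start sites were taken. Of these members, 6 had a GC box, 5 had GTCTG, 2 had a CCAAT box, 1 had GGAATG and 0 had TATAAA or AP-1. A member was counted if any of its windows matched, so these counts cannot be set directly against the shares of single windows. The windows of Fbn1, Fbln2 and Emilin1 lie wholly in exons of their own gene. All motif hits are matches of letters and no evidence of binding.

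Fibrillin-1, encoded by Fbn1, is the main structural protein of microfibrils. Fbn1 was at 2547 CPM in DPCs at low passage and 536 CPM at high passage, and at 2796 and 1668 CPM in DSCs. High-passage DPCs stood apart with the lowest level, while both low-passage cultures were close to each other. By raw count Fbn1 ranked 27th and 26th of all genes in low-passage DPCs and DSCs, and 213th and 52nd at high passage. Its log2 fold change with passage was -2.25 in DPCs (interval -2.27 to -2.23, 4.75-fold lower) and -0.75 in DSCs (-0.76 to -0.73, 1.68-fold lower).

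Fibrillin-2, encoded by Fbn2, is the fibrillin best known from developing tissues. Fbn2 was represented by 2119 counts in DPCs at low passage and 7 at high passage, and by 1031 and 51 counts in DSCs. On the CPM scale these were 57.6, 0.195 (0.0784 to 0.402), 27.2 and 1.12. Both high-passage cultures were thus far below both low-passage cultures. The log2 fold change was -7.87 in DPCs (-9.52 to -7.16, 234-fold lower) and -4.54 in DSCs (-5.04 to -4.20, 23.3-fold lower). In DPCs this was the lowest fold change of all 16734 genes, and in DSCs the 18th lowest. With the deposited FPKM values and a pseudocount of 1 in place of CPM, the same values were -2.58 and -1.58, as the added 1 exceeds both levels at high passage.

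The microfibril-associated glycoproteins bind fibrillins and differed from each other. Mfap5, which encodes MAGP-2, was at 38.6 CPM in DPCs at low passage and 10.1 CPM at high passage, and at 56.7 and 33.1 CPM in DSCs. It was lowest in high-passage DPCs, with log2 fold changes of -1.92 in DPCs (-2.10 to -1.76) and -0.78 in DSCs (-0.87 to -0.68). Mfap2, which encodes MAGP-1, had 661 and 725 counts in low- and high-passage DPCs, and 310 and 429 counts in DSCs. It was thus set apart by cell type, with both DPC libraries above both DSC libraries, and little by passage. Its log2 fold change with passage was 0.17 in DPCs (0.02 to 0.32) and 0.20 in DSCs (-0.01 to 0.42), and the interval in DPCs also included 0 when counts were halved to allow for both mates of a read pair having been counted.

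Elastin, encoded by Eln, is the crosslinked core of the fibre. Eln had 4358 counts in DPCs at low passage and 38 at high passage, or 118 and 1.06 CPM. In DSCs it had 466 and 240 counts, or 12.3 and 5.27 CPM. Low-passage DPCs were by far the highest of the libraries and high-passage DPCs the lowest. The log2 fold change with passage was -6.74 in DPCs (-7.31 to -6.35, 107-fold lower), the 9th lowest of all genes tested. In DSCs it was -1.21 (-1.45 to -0.99, 2.32-fold lower), which ranked 720th from the lowest.

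The short fibulins fibulin-4 and fibulin-5 bind tropoelastin and are needed for its assembly into fibres. Fbln5, which encodes fibulin-5, was at 631 and 695 CPM in low- and high-passage DPCs and at 657 and 853 CPM in DSCs, and its log2 fold changes with passage were 0.14 and 0.38. Efemp2 was at 73.0 and 106 CPM in DPCs and at 87.6 and 124 CPM in DSCs, with log2 fold changes of 0.54 in DPCs (0.47 to 0.61) and 0.50 in DSCs (0.44 to 0.56). Both genes were higher at high passage in either cell type, by less than 2-fold. Elastin itself and these assembly proteins therefore took different courses in passaged DPCs.

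Fibulin-1 and fibulin-2 are larger members of the family found along elastic fibres and in basement membranes. Fbln1 was at 33.2 and 11.5 CPM in low- and high-passage DPCs and at 18.9 and 10.2 CPM in DSCs. The level was lower at high passage in both, with log2 fold changes of -1.53 (-1.70 to -1.37) in DPCs and -0.88 (-1.06 to -0.72) in DSCs. Fbln2 was at 985 and 403 CPM in DPCs and at 1127 and 1164 CPM in DSCs, so that only high-passage DPCs differed from the rest by more than 2-fold. Its log2 fold change was -1.29 in DPCs (-1.32 to -1.26) and 0.05 in DSCs (0.03 to 0.06), the latter -0.03 with FPKM values.

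Emilin-1, encoded by Emilin1, lies at the interface of elastin and microfibrils. Emilin1 was at 174 CPM in DPCs at low passage and 464 CPM at high passage, and at 200.4 and 420 CPM in DSCs. Both high-passage cultures were above both low-passage cultures. The log2 fold change was 1.41 in DPCs (1.37 to 1.45, 2.66-fold higher) and 1.07 in DSCs (1.03 to 1.11, 2.09-fold higher), and no other member was at least 2-fold higher in a passage comparison.

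**Figure D1:**
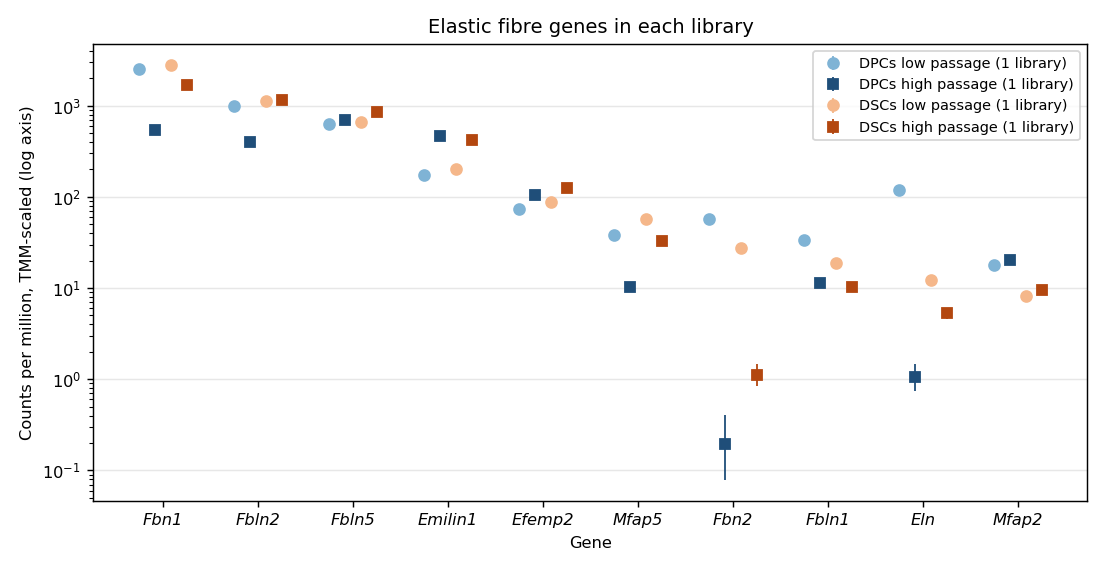
CPM (TMM-scaled, log axis) of the 10 genes in each of the 4 libraries, with 1 point per library and no replicates. Fbn2 and Eln reach their lowest points in high-passage DPCs, at 0.195 and 1.06 CPM, whereas Fbln5 stays between 631 and 853 CPM.

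In passaged DPCs, 3 of the 10 genes (Fbn1, Fbn2 and Eln) were at least 4-fold lower, where 4.36% of all genes tested were, and 0 were at least 4-fold higher, against 5.58%. At a limit of 2-fold, 6 were lower (15% of all genes) and 1 was higher (16.1%). The median log2 fold change of the members was -1.41, and that of all genes 0.03. Fbn1 at -2.25 was the member just past the 4-fold limit and Mfap5 at -1.92 the one just short of it, while Fbln2 at -1.29 and Efemp2 at 0.54 stood on the sides of the 2-fold limit.

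In passaged DSCs, 1 member (Fbn2) was at least 4-fold lower, against 1.16% of all genes, and 0 were at least 4-fold higher, against 2.67%. Fbn2 and Eln were at least 2-fold lower (2 members, with 6.21% of all genes), and Emilin1 was the 1 member at least 2-fold higher (8.55%). The median of the members was -0.35, with 0.00 over all genes. Emilin1 at 1.07 and Fbln1 at -0.88 were nearest to the 2-fold limit.

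Side by side, 9 of 10 members had the same sign of change in DPCs and DSCs, which 70.5% of all genes had. Of these, 5 were lower in both (Fbn1, Fbn2, Eln, Fbln1 and Mfap5), against 34.4% of all genes, and 4 were higher in both (Fbln5, Efemp2, Emilin1 and Mfap2), near the 36.1% of all genes. Fbln2 was the exception, though with FPKM values it was lower in both. The change was of larger size in DPCs for 8 members, against 69.8% of all genes. Eln had the widest gap, with a change in DPCs lower by 5.52 on the log2 scale than that in DSCs. It was followed by Fbn2 with a difference of -3.33, then by Fbn1, Fbln2 (-1.34) and Mfap5 (-1.15). With FPKM plus 1 the difference of Eln was -3.77, and Fbn2 came after Fbn1 (-1.56) and Fbln2 (-1.37). For Efemp2 (0.04) and Mfap2 (-0.03) the changes in DPCs and DSCs were nearly equal. With 1 library per group these differences could not be tested.

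**Figure D2:**
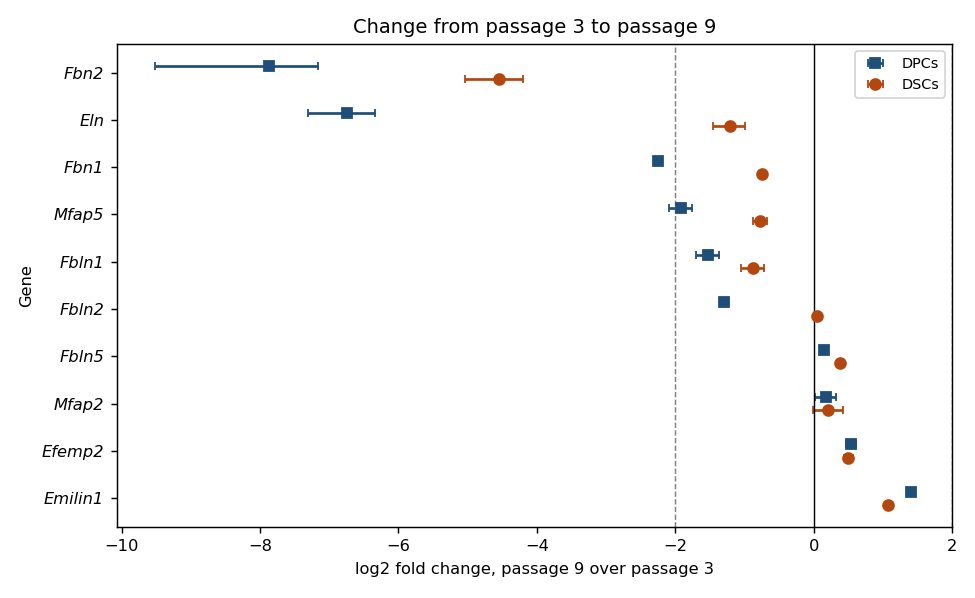
Log2 fold change of high over low passage for the 10 genes in DPCs and in DSCs, with bars for the 95% counting interval. Fbn2 (-7.87 and -4.54) and Eln (-6.74 and -1.21) lie farthest below 0, and Emilin1 (1.41 and 1.07) farthest above it.

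Comparing DPCs with DSCs at low passage, 1 member, Eln, was at least 4-fold higher in DPCs, where 1.52% of all genes were, and 0 were at least 4-fold lower, against 2.77%. Eln was 9.60-fold higher (log2 3.26, 3.13 to 3.41), the 62nd highest of all genes. Together with Mfap2 (1.13) and Fbn2 (1.08, 0.97 to 1.19) it made 3 members at least 2-fold higher, against 5.43% of all genes, and 0 members were at least 2-fold lower (7.86%). The members' median was -0.10, with 0.00 over all genes. Fbn1 (-0.13), Fbln2 (-0.19), Emilin1 (-0.20), Efemp2 (-0.26) and Mfap5 (-0.55) were slightly lower in DPCs, and Fbln1 was higher (0.81). Fbln5 was at -0.06, a difference that was 0.03 when libraries were scaled by total counts.

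At high passage the order of the cell types was the other way round for Eln and Fbn2. Eln was 4.79-fold lower in DPCs than in DSCs (log2 -2.26, -2.85 to -1.82), and Fbn2 was at -2.25 (-3.91 to -1.37). These 2 members were at least 4-fold lower, against 3.91% of all genes, and 0 were at least 4-fold higher (2.5%). Both rest on few counts in high-passage DPCs, and with FPKM values and a pseudocount of 0.1 they were at -1.89 and -0.73, short of the 4-fold limit, and with a pseudocount of 1 at -0.82 and -0.10. Mfap5 (-1.70), Fbn1 (-1.64) and Fbln2 (-1.53) were also at least 2-fold lower, which made 5 members against 11% of all genes. Mfap2 was again higher in DPCs (1.10) and the only member at least 2-fold higher, with 9.11% of all genes. Fbln5 (-0.29), Efemp2 (-0.23), Emilin1 (0.14) and Fbln1 (0.16, -0.03 to 0.35) differed little. The members' median was -0.91, and that of all genes -0.01.

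**Figure D3:**
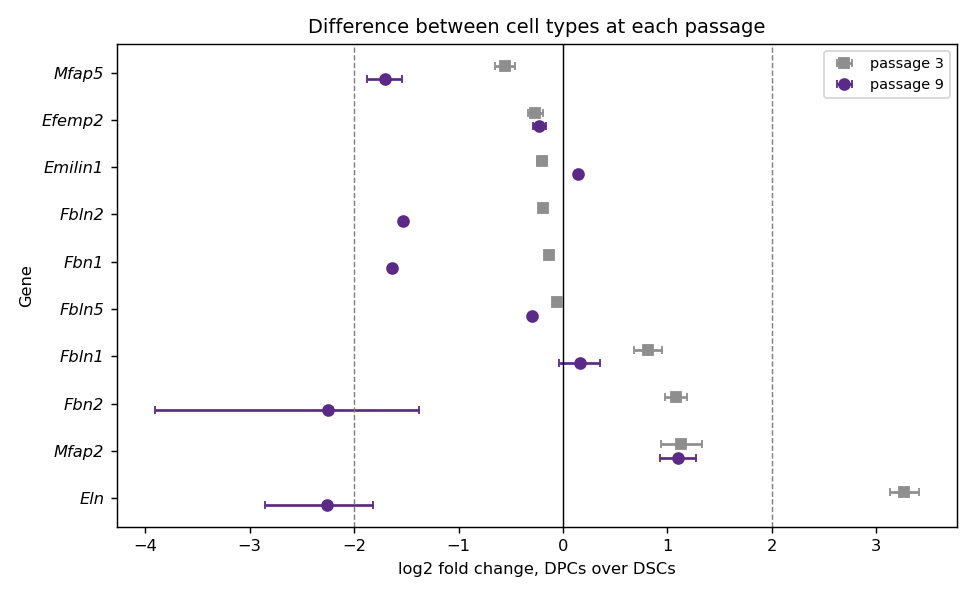
Log2 ratio of DPCs over DSCs for the 10 genes at low and at high passage, with bars for the 95% counting interval. Eln goes from 3.26 to -2.26 and Fbn2 from 1.08 to -2.25, while Mfap2 stays near 1.1 at both passages.

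To compare the genes with each other, the deposited FPKM values were used, which are scaled by transcript length. In low-passage DPCs Fbln5 (228 FPKM), Fbn1 (226 FPKM) and Fbln2 (225 FPKM) were at nearly equal levels and well above Efemp2 (52.0 FPKM), Emilin1 (42.1 FPKM), Eln (29.7 FPKM) and Mfap5 (24.4 FPKM). Mfap2 (15.9 FPKM), Fbln1 (11.3 FPKM) and Fbn2 (5.08 FPKM) were the lowest. Low-passage DSCs had the same leading genes, with Fbln2 at 242, Fbn1 at 235 and Fbln5 at 221 FPKM, but Eln was at 2.97 FPKM, next to the lowest, Fbn2, at 2.26 FPKM.

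At high passage the order was different. In DPCs Fbln5 led at 247 FPKM, followed by Emilin1 (111 FPKM), Fbln2 (84.5 FPKM), Efemp2 (79.2 FPKM) and Fbn1 (43.8 FPKM), with Eln at 0.256 and Fbn2 at 0.0148 FPKM at the end. In high-passage DSCs Fbln5 (289 FPKM), Fbln2 (237 FPKM) and Fbn1 (136 FPKM) remained in front of Emilin1 (93.1 FPKM) and Efemp2 (86.6 FPKM), and Eln and Fbn2 were at 1.22 and 0.0908 FPKM. In all 4 libraries Fbn2 was the lowest of the 10 genes.

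The summed FPKM of the 10 genes was 859 in DPCs at low passage and 595 at high passage, and 857 and 873 in DSCs. The sum in DPCs was thus 0.692 times as high at high as at low passage, and in DSCs 1.02 times. Fbn1 made up 26.3% of the sum in low-passage DPCs and 7.36% in high-passage DPCs, against 27.4% and 15.6% in DSCs. The share of Fbln5 went from 26.5% to 41.5% in DPCs and from 25.7% to 33.1% in DSCs, and that of Emilin1 from 4.90% to 18.6% and from 5.33% to 10.7%. Per length, Fbn1 was 5.37 times as high as Emilin1 in low-passage DPCs and 0.395 times as high in high-passage DPCs, and the ratio in DSCs was 5.15 and 1.46. The ratio of Fbln5 to Eln was 7.66 and 964 in DPCs and 74.3 and 238 in DSCs.

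**Figure D4:**
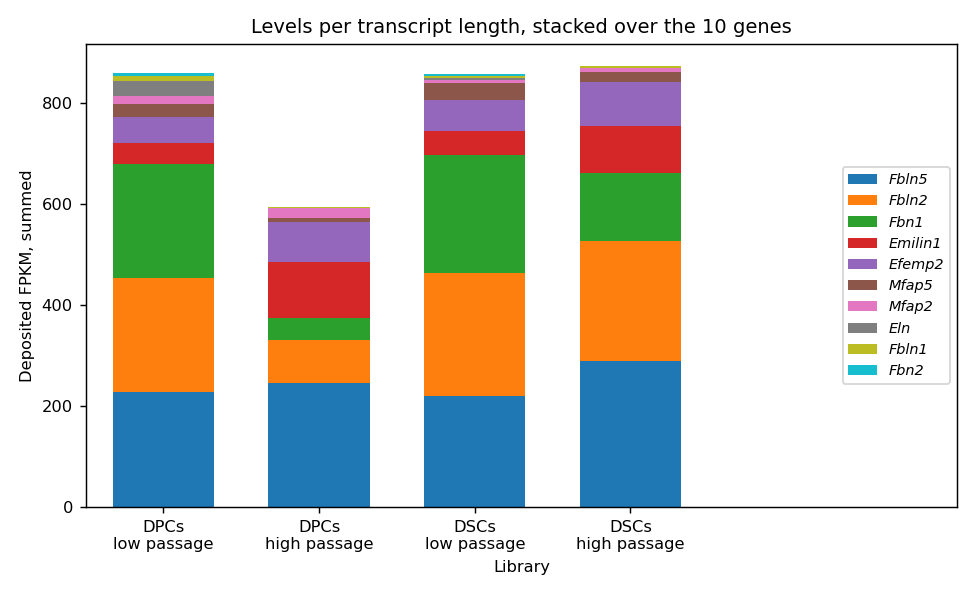
Deposited FPKM of the 10 genes in each library, as levels per transcript length. Fbn1 and Fbln2 are far lower in high-passage DPCs (43.8 and 84.5 FPKM) than in the other libraries, where they lie between 136 and 242 FPKM, and Fbln5 leads there at 247 FPKM.

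Some members had nearly the same profile over the 4 libraries. After each profile was centred on its own mean, the root mean square difference was 0.151 on the log2 scale for Fbln5 and Efemp2 and 0.167 for Fbn1 and Mfap5, the closest pairs. Among all other genes, the profiles nearest to Fbn1 were those of Tcf7 (0.05), Trim59 (0.07) and Casp9 (0.07), and those nearest to Mfap5 were Ccdc163 (0.03), Gpr137b (0.06) and Apobr (0.06). For Fbn2 and Eln, 2 and 18 genes lay within a difference of 1. Nearest to Fbn2 was Adgrd1 (0.26), an adhesion receptor with 373 and 0 counts in low- and high-passage DPCs and 157 and 11 in DSCs, ahead of Prl2c2 (0.94) and Heyl (1.06), a Notch target. Among the genes near to Eln were Lef1 (0.56), a transcription factor of Wnt signalling and one of the papilla markers, with 508 and 2 counts in DPCs and 101 and 55 in DSCs, and Zcchc5 (0.59). All of these likenesses rest on 4 libraries.

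Genes that process, crosslink, bind or degrade elastic fibre proteins were described from 8 lists of 57 genes, of which 51 passed the filter. Their median log2 fold change with passage was 0.01 in DPCs and 0.05 in DSCs. In DPCs 3 were at least 4-fold lower and 3 at least 4-fold higher, or 5.88% each, against 4.36% and 5.58% of all genes, and in DSCs there was 1 in each direction, or 1.96%, against 1.16% and 2.67%. With passage the partners as a whole thus lay near all genes. Between the cell types they did not, with medians of DPCs over DSCs of -0.44 at low and -0.46 at high passage. At least 4-fold lower in DPCs were 5 partners at low passage, or 9.80%, against 2.77% of all genes, and 3 at high passage, or 5.88%, against 3.91%. At least 4-fold higher were 3 at low passage (5.88%, against 1.52%) and 2 at high passage (3.92%, against 2.5%). Mmp9 and Fbln7, which are below the mean count of 100 set for naming partners, were named after their values were seen.

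Of the lysyl oxidases, which crosslink elastin and collagen, Lox was the most abundant, with 104322 and 46840 counts in low- and high-passage DPCs and 200433 and 140871 in DSCs, and log2 fold changes with passage of -1.12 and -0.77. Loxl2 had 29922 and 2208 counts in DPCs and 16872 and 15857 in DSCs, and was 13.2-fold lower in passaged DPCs (-3.72), with -0.35 in DSCs. High-passage DPCs were the lowest library for Loxl2, as they were for Fbn1 and Fbln2. The other 3 enzymes of the list lay between -0.08 and -0.01 in DPCs. Thus 1 of 5 was at least 4-fold lower there (4.36% of all genes) and 0 in DSCs (1.16%).

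Most latent TGF-beta binding proteins can anchor TGF-beta to fibrillin. Of 7 genes of these proteins and TGF-beta, 3 were at least 2-fold higher with passage in DPCs (16.1% of all genes). In DSCs 3 were as well (8.55%). At least 2-fold lower were 0 in either (15% and 6.21%), and the medians were 0.75 and 0.09. In DPCs the Ltbp genes were higher with passage (0.75 to 1.99) and the Tgfb genes lower (-0.59 to -0.35). In DSCs the Ltbp genes lay between -0.07 and 1.71 and the Tgfb genes between -0.61 and 0.09. Ltbp2 had the highest FPKM summed over the 4 libraries. In low-passage DPCs, however, Tgfb3 (81.0 FPKM) and Ltbp1 (37.1 FPKM) were above it (31.6 FPKM). Ltbp2 was at 1.32 in DPCs and -0.07 in DSCs and was lower in DPCs than in DSCs at low passage (-2.52). Of the 6 tested relatives of the members, 1 was at least 4-fold higher in passaged DPCs (5.58% of all genes) and 0 in DSCs (2.67%). It was Hmcn1, which encodes hemicentin-1, at 2.68 with 444 and 2782 counts, and at 1.25 in DSCs. In FPKM Hmcn1 was at 1.22 and 4.35 in low- and high-passage DPCs, short of 4-fold, and at 0.505 and 0.662 in DSCs. Efemp1, the fibulin-3 gene, had the highest FPKM summed over the 4 libraries. Mfap3 was above it in both DPC libraries (9.86 and 9.22 FPKM, against 5.80 and 6.07 FPKM). Emilin2 was above it in high-passage DPCs (6.36 FPKM) and low-passage DSCs (13.8 FPKM, against 11.7 FPKM). Efemp1 was at 0.04 in DPCs and 0.84 in DSCs. Emilin2 was higher in passaged DPCs (1.41), like Emilin1, and was at 0.29 in DSCs. Mfap3 differed by cell type at both passages (2.34 and 2.04 higher in DPCs), Mfap4 was lower in DPCs at high passage (-2.01), and Fbln7 and Emilin2 were lower in DPCs at low passage (-2.56 and -2.60).

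Of 6 tested ADAMTS and ADAMTS-like genes, whose products bind microfibrils, 2 were at least 2-fold lower in passaged DPCs (15% of all genes) and 1 in passaged DSCs (6.21%), with medians of -0.66 and 0.00. Adamtsl3 had 224 and 108 counts in low- and high-passage DPCs, was at -2.47 in DSCs and was lower in DPCs than DSCs at both passages (-4.33 and -2.86). Adamtsl5, the most abundant of them, was at -0.60 and -0.17. Of 7 genes that cleave, glycosylate or fold fibrillin, 1 was at least 4-fold higher in passaged DPCs (5.58% of all genes). It was Pcsk6, a proprotein convertase (3.22), with 2440 and 22162 counts in low- and high-passage DPCs and 20906 and 30650 in DSCs. Low-passage DPCs stood apart with the fewest Pcsk6 counts. In DSCs 0 of the 7 reached 2-fold in either direction, where 6.21% of all genes were lower and 8.55% higher. Fkbp10, a chaperone of collagen and tropoelastin, was at -0.89 in DPCs and -0.33 in DSCs.

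Among 7 tested integrin genes for receptors of fibrillins and related ligands, 1 was at least 4-fold lower and 1 at least 4-fold higher in passaged DPCs. Of all genes, 4.36% were lower and 5.58% higher by that limit. Itga5, a subunit of the fibronectin receptor, was at -2.08 in DPCs and -0.35 in DSCs. Itga8 had 6837 and 34714 counts in low- and high-passage DPCs and 1674 and 23287 in DSCs, with log2 fold changes of 2.38 and 3.53. It was the 1 integrin gene at least 4-fold higher in DSCs (2.67% of all genes). Itgb1, the most abundant, was at 0.17 and 0.45. The 3 genes of the elastin receptor complex were all within 2-fold, with Ctsa at 0.32 and 0.10. Of 10 elastin-degrading enzymes and inhibitors, 4 were at least 2-fold lower and 1 higher in passaged DPCs, against 15% and 16.1% of all genes, and 1 each in DSCs, near the 6.21% and 8.55% of all genes. The inhibitor Timp2 had the highest FPKM summed over the 4 libraries. Mmp14 was above it in low-passage DPCs (242 against 216 FPKM) and Timp3 in low-passage DSCs (459 against 421 FPKM). Timp2 was higher at high passage (1.04 and 0.67). The gelatinase gene Mmp9 was at -4.27 in DPCs with 114 and 4 counts and at -1.28 in DSCs with 19 and 8 counts.

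**Figure D5:**
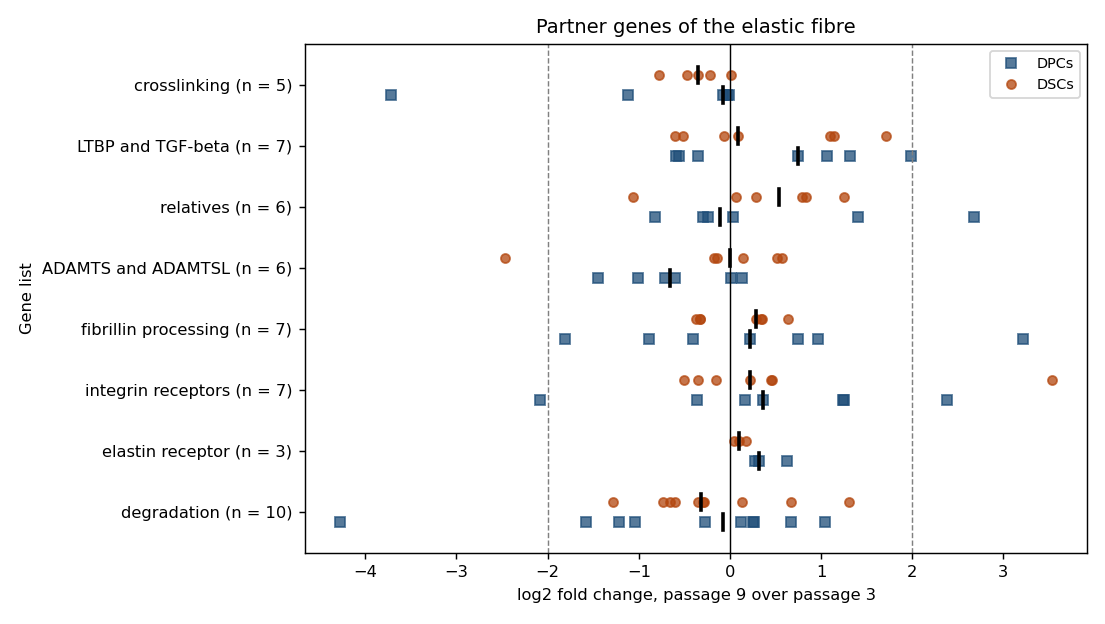
Log2 fold change with passage of the tested partner genes by list, in DPCs and in DSCs. Loxl2 (-3.72) and Mmp9 (-4.27) are the lowest points in DPCs, Pcsk6 (3.22) the highest in DPCs and Itga8 (3.53) the highest in DSCs.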

How the data were processed

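RNA from 4 cultures, DPCs and DSCs at passages 3 and 9, was sequenced as 1 library each. The labels name a TruSeq kit and the study's methods a NEBNext kit with paired-end reads. The authors deposited raw counts per gene, which are whole numbers without normalization, and FPKM per gene, which they scaled by transcript length and depth. The submitters' processing notes name Bowtie 0.12.2 and the builds mm8 and mm9, while the deposited gene positions were those of GRCm38 for 8 of the 10 members. The counting program and its use of strand were not given in the sources used here. In every library more genes had 2 counts than 3, and more had 4 than 5 (1339, 583, 754 and 451 genes with 2, 3, 4 and 5 counts in low-passage DPCs), a pattern that arises where both mates of a pair are counted, so intervals were repeated on halved counts.

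Libraries were assigned to groups by their titles and the labelled passage. Counts were scaled with TMM in edgeR 4.0.16 (R 4.3.3), and genes with a mean count of at least 10 were kept. Fold changes were taken between log2 CPM values (prior count 2), and the calculation was tested on simulated data. Intervals are exact 95% binomial (Clopper-Pearson) intervals of the share of one library in the summed counts of a pair, or exact Poisson intervals of a count. No p-value was computed and no count model was fitted, as each group had 1 library. The members and the lists of partners and markers were chosen with earlier results of these data known. All members were named, and partners were named where a comparison gave a log2 fold change of 2 or more in size with a mean count of at least 100, or as the most abundant of their list by summed FPKM. For members whose log2 CPM spanned 2 or more, the 3 genes nearest in profile were named, except 1 that is not reported here. Alternatives were size factors of DESeq2 1.42.0, total counts, upper-quartile scaling, no filter or a mean count of 100, prior counts of 0.5 and 10, and log2 FPKM with pseudocounts of 0.1 and 1.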

Additional observations from a re-analysis of the deposited data

Results flagged for a closer look

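Differences between groups stood out for 4 genes because the same contrast had opposite signs in the groups compared. With 1 library per group, none of these differences was tested. The change of Fbln2 with passage was -1.29 in DPCs and 0.05 in DSCs, a difference of -1.34 on the log2 scale. With FPKM values the change in DSCs was -0.03, the same sign as in DPCs. The difference of DPCs over DSCs was 3.26 at low passage and -2.26 at high passage for Eln, 5.52 apart, and 1.08 and -2.25 for Fbn2, 3.33 apart. For Emilin1 it was -0.20 and 0.14, a difference of -0.34.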

How the results depend on the processing

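No paired analysis was possible because each group had 1 library and the labels carry no replicate numbers. The alternatives were applied to the members and to the counts over all genes, not to partners or markers. Of 144 counts of members past a limit under the alternatives, 138 were within 1.5 times the reported count. With FPKM plus 1, 0 members in place of 1 were at least 4-fold lower with passage in DSCs and 1 in place of 2 at least 2-fold lower, and at high passage 3 in place of 5 were at least 2-fold lower in DPCs than in DSCs. The 2 members at least 4-fold lower in that comparison were 1 with a prior count of 10 and 0 with FPKM plus 0.1 or 1. By construction, pseudocounts and priors pull differences between low levels, such as those of Fbn2 and Eln, toward 0. Of 360 values of single members, 293 stayed within the counting interval or closer to the reported value than the mean arm of that interval, 62 moved further and 5 changed sign. Those that changed sign were Fbln2 in passaged DSCs (-0.0342 with FPKM plus 0.1, -0.0341 with FPKM plus 1) and Fbln5 between cell types at low passage (0.0324 with total counts, 0.0453 and 0.0452 with the FPKM settings). The difference between the passage changes of Mfap2 was 0.15 and 0.16 with FPKM plus 0.1 and 1, in place of -0.03. The log2 ratio of summed levels of DPCs over DSCs at low passage was 0.00 with FPKM and -0.0604 after rescaling to TPM. The cause of these sign changes was not tested. The number of all genes at least 4-fold lower ranged over the alternatives from 177 to 1078 in passaged DPCs (730 reported) and from 19 to 423 in passaged DSCs (194 reported). The number of genes tested also differed with the filter. As shares of the genes tested, the ranges were 1.06% to 4.82% in DPCs and 0.114% to 1.55% in DSCs. With 7 and 38 counts, depth limits the values of Fbn2 and Eln in high-passage DPCs.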
